A study of Sus scrofa with 2 samples.

Results

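The microRNAs miR-10a and miR-10b were followed, read by read, in small RNA libraries of pig oocytes. Members were reads of 18 to 26 nt that held nt 2 to 18 of either mature sequence without mismatch and began at most 2 nt from its 5′ end. Base 12, the base that differs within the pair, assigned each read. This gave 310 distinct sequences of 1166705 in all, 35 of miR-10a and 275 of miR-10b. Of the 275, 138 occurred in both libraries, and of the 35, 16 did.

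The Dicer KD library came from oocytes whose Dicer, the ribonuclease that frees miRNAs from their hairpins, had been targeted with siRNA at the germinal vesicle stage. The other library came from control oocytes; the siRNA step is written on both samples, and the labels say neither what the controls received nor how many oocytes were pooled. Both kinds of oocyte had matured in vitro for 42 h and were taken at metaphase II, the stage of fertilisation. Each group had 1 library, of 11982925 reads in Dicer KD and 11836160 in control, so nothing could be tested between conditions and every comparison is of these libraries. Intervals are exact 95% intervals for counting error alone, since amplified reads lack molecular identifiers and need not each be a separate molecule. A ratio is Dicer KD over control, of RPM values unless it is called a share ratio. Counts of forms or miRNAs called higher or lower use differences of at least 2-fold. Elsewhere these words give the direction alone, with the ratio or shares beside them. Dicer mRNA was not measured in these small RNA tables, so the knockdown itself was not checked, and neither were mRNAs that mark oocytes.

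The miR-10 genes lie within Hox clusters, and in the RefSeq annotation of pig assembly Sscrofa11.1 the nearest Hox genes on either side were HOXB3 and HOXB5 for MIR10A and HOXD8 and HOXD3 for MIR10B. In general, a miRNA on the 5′ arm of its hairpin has its 5′ end cut by Drosha in the nucleus and its 3′ end by Dicer in the cytoplasm. Bases 2 to 8, the seed, choose the targets, so a moved 5′ end gives another seed. Enzymes can also shorten the 3′ end or add single A or U residues to it. In mouse oocytes miRNAs are known to have little activity, and Dicer is known for making endogenous siRNAs.

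The mature sequences are shown with the seed in capitals, as DNA letters, 5′ to 3′, as read from the deposited tables. Both have the same seed and differ by A12T, miR-10b's base first, counted from 1 at the 5′ end.
miR-10a: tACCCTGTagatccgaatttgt
miR-10b: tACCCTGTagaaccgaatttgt

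The results turn on the following forms. A read that begins 1 nt late has its seed moved by 1 base, shown again in capitals.
miR-10b from nt 2 to nt 22: aCCCTGTAgaaccgaatttgt
Forms cut at the 3′ end are shown without capitals.
miR-10b from nt 1 to nt 19: taccctgtagaaccgaatt
miR-10b from nt 1 to nt 18: taccctgtagaaccgaat
Forms that go on past nt 22 are shown with the bases past it in capitals.
miR-10b from nt 1 with G: taccctgtagaaccgaatttgtG
miR-10b from nt 1 with GA: taccctgtagaaccgaatttgtGA
miR-10b from nt 2 with GT: accctgtagaaccgaatttgtGT

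The levels of the pair were far apart, and only the rarer member differed by more than 2-fold. miR-10b had 444913 reads in the Dicer KD library and 425561 in the control library, or 37129 and 35954 RPM (reads of the miRNA scaled to the library's total). Its ratio was 1.03 (1.03 to 1.04), so miR-10b was nearly level. miR-10a had 1027 and 291 reads, or 85.7 and 24.6 RPM (Poisson intervals 80.5 to 91.1 and 21.8 to 27.6), a ratio of 3.49 (3.06 to 3.98). miR-10a thus made up 0.230% of the pair's reads in Dicer KD (exact binomial interval 0.216 to 0.245%) and 0.0683% in control (0.0607 to 0.0766%).

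Because miR-10a is 1 base from a miRNA over 100-fold more abundant, its reads were set beside other reads 1 base from mature miR-10b. The 22-nt sequence with T at nt 12 had 533 reads in Dicer KD and 137 in control. The same kind of change, A to T, at the other 5 A positions gave 12 to 40 reads in Dicer KD (median 28) and 3 to 21 in control (median 16). With the mean rate at these positions applied to all miR-10b reads, 37.7 and 17.9 reads with T at nt 12 would come from substitution, and the miR-10a ratio without them was 3.58. All other single substitutions of nt 1 to 21 gave at most 301 reads in Dicer KD and 401 in control, both for A2G, a change within the seed. In control, 5 of the 62 had more reads than T at nt 12, and in Dicer KD none did.

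**Figure D1:**
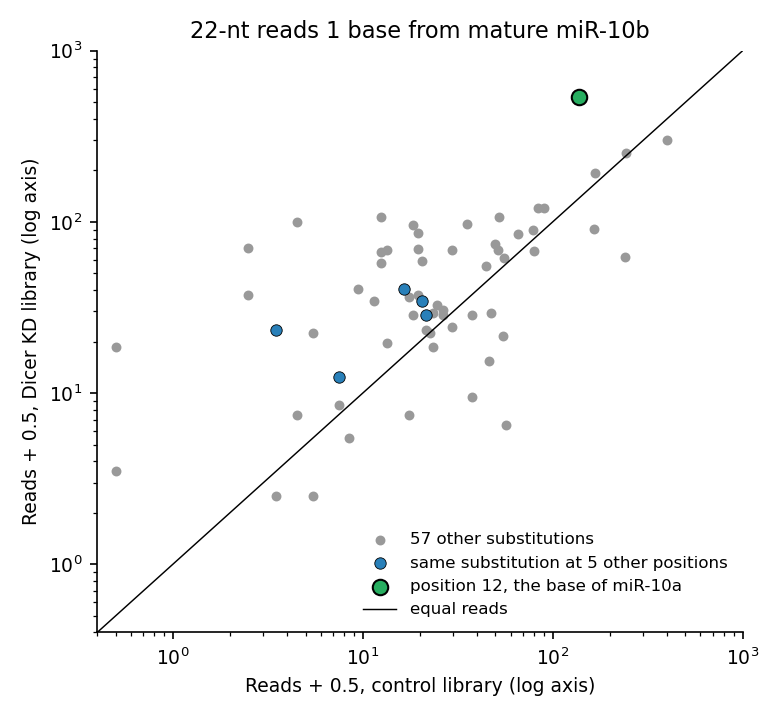
Reads of 22 nt that differ from mature miR-10b by 1 base at nt 1 to 21, Dicer KD library (vertical, log axis) against control library (horizontal, log axis), with 0.5 added. The base of miR-10a at position 12 had 533 and 137 reads, above the same substitution at 5 other positions, which had at most 40 and 21.

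Ratios of such 1-base variants also varied. Of the 19 other substitutions with 100 or more reads over both libraries, 6 were at least 2-fold higher in Dicer KD and 1 at least 2-fold lower, and 4 had a larger ratio than the 3.84 of T at nt 12. The ratios ran from 0.254 for A16G to 24.4 for G21C, with a median of 1.32. The 6 that were higher had at most 52 reads each in control, so they met the minimum of 100 through their Dicer KD reads. A16G, with 62 and 241 reads, met it through its control reads. Over all sequences of 18 to 26 nt with this minimum, 4.98% were at least 2-fold higher and 6.05% at least 2-fold lower. What gave these differences was not tested.

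The short forms of miR-10b were several times more frequent in the Dicer KD library. Reads of 18 nt numbered 3280 in Dicer KD and 501 in control, 0.737% (0.712 to 0.763%) and 0.118% (0.108 to 0.128%) of miR-10b reads, a share ratio of 6.26 (5.70 to 6.89). Reads of 19 nt numbered 8701 and 2605, 1.96% and 0.612%, a share ratio of 3.19 (3.06 to 3.34). The excess was thus larger the shorter the read, and it shrank quickly with length. At 20 nt the shares were 2.49% and 1.999%, a share ratio of 1.24 (1.21 to 1.28), and at 21 nt 8.24% and 7.46%, a share ratio of 1.10 (1.09 to 1.12).

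From 22 nt upward the shares were lower in Dicer KD. The 22-nt reads made up 75.2% in Dicer KD and 77.5% in control, a share ratio of 0.970 (0.966 to 0.975). Reads of 23 nt made up 8.13% and 8.65%, reads of 24 nt 3.11% and 3.49%, and reads of 25 nt 0.163% and 0.195%. The 26-nt reads were 15 and 32. The exact mature form, with nothing added, held 72.7% (72.5 to 72.8%) of miR-10b reads in Dicer KD and 74.8% (74.7 to 74.9%) in control. Its level alone had a ratio of 1.003 (0.998 to 1.008), within counting error of equality.

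**Figure D2:**
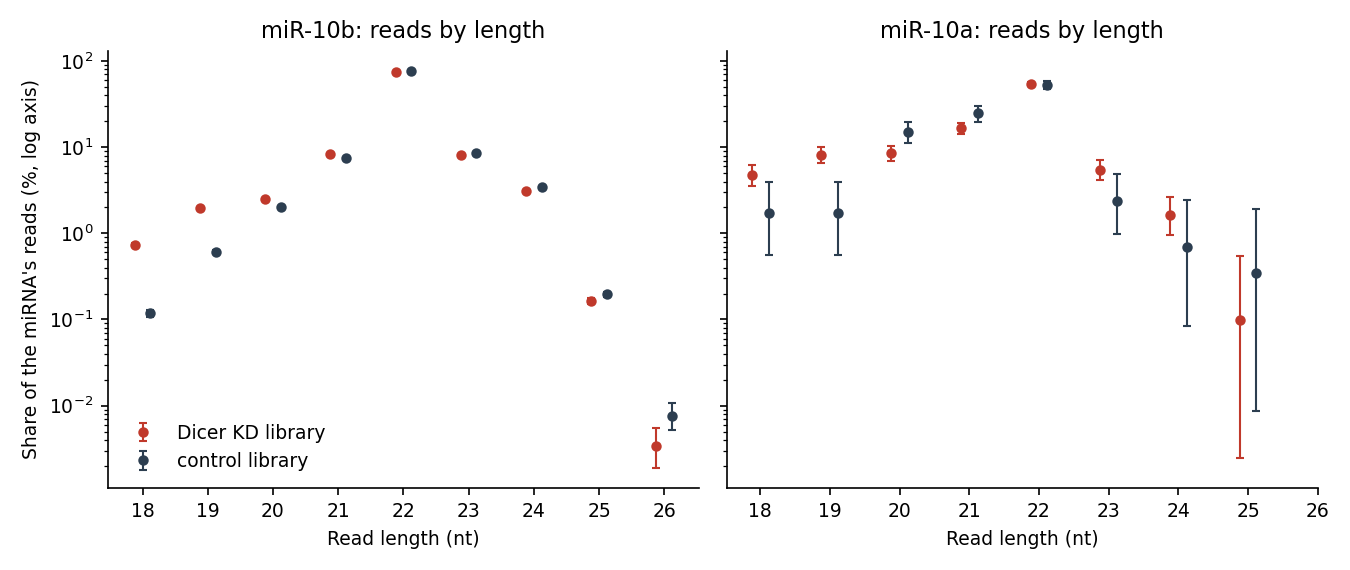
Share of each miRNA's reads at each length from 18 to 26 nt (vertical, percent on a log axis) in the Dicer KD library and the control library, with exact 95% binomial intervals; lengths with 0 reads have no point. For miR-10b the 18-nt shares were 0.737% and 0.118% and the shares converge at 20 to 25 nt; for miR-10a the 18-nt and 19-nt shares were also higher in Dicer KD.

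Summed over all RNAs outside the pair, reads of these lengths differed less. Those of 18 nt had a ratio of 1.22 (1.21 to 1.23) relative to all reads and those of 19 nt 0.959 (0.952 to 0.967). On the same scale miR-10b was at 6.47 (5.88 to 7.12) for 18 nt and 3.30 (3.16 to 3.45) for 19 nt. miR-182, an abundant miRNA listed for comparison, had 18-nt shares of 0.155% (0.139 to 0.174%) in Dicer KD and 0.173% (0.156 to 0.191%) in control. In miR-148a these shares were 0.0733% and 0.0534%, on 26 and 18 reads. Among the sequence relatives, miR-99b had 74 of 414 reads at 18 nt in Dicer KD and 1 of 520 in control, while miR-100 had 2 of 668 and 4 of 2134. miR-99a had 8 of 128 and 1 of 44, with a share ratio of 2.75 whose interval (0.369 to 122) holds 1. miR-125a had 0 reads of 18 nt in both libraries and miR-125b had 1 and 0. A larger 18-nt share in Dicer KD beyond counting error was thus seen in miR-10b and miR-99b, and not in miR-182 or miR-148a, while miR-99a and the other relatives had too few such reads to tell.

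To place this among all RNAs, reads of 18 to 26 nt were grouped by their first 18 nt. Of the 271 groups with at least 1000 reads and at least 20 of 18 nt, 12.5% had an 18-nt share at least 2-fold higher in Dicer KD. The median log2 ratio of these shares was 0.07, with 5th and 95th percentiles of -1.37 and 1.47. The miR-10b group was at 2.70, and 3 of the 271 were above it.

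**Figure D3:**
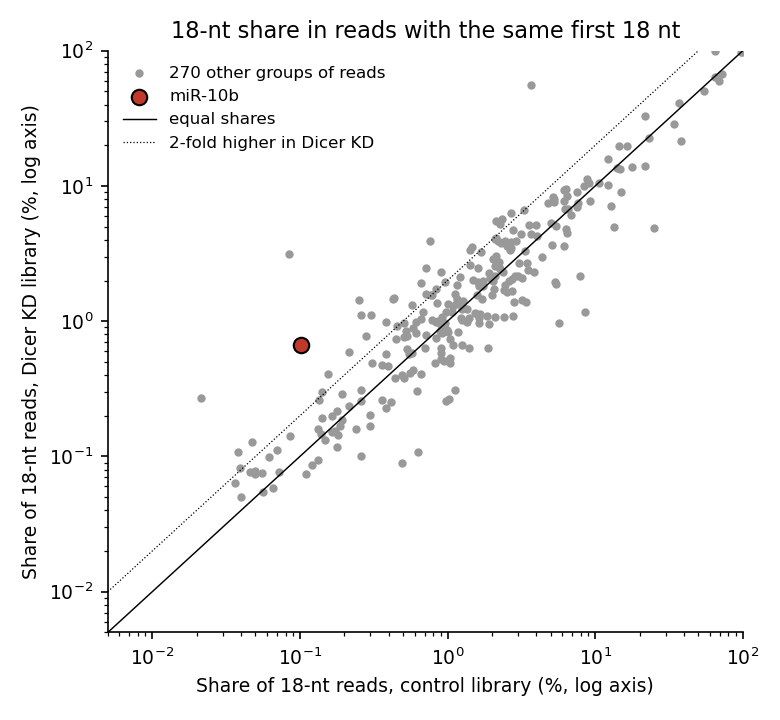
Share of 18-nt reads among reads of 18 to 26 nt with the same first 18 nt, Dicer KD library (vertical) against control library (horizontal), in percent on log axes; grey points are 270 other groups, with 0.5 added to their 18-nt reads. miR-10b, at 0.665% and 0.102%, lies above the dotted line of a 2-fold higher share.

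The distinct forms that were higher were mostly short. Of the 34 miR-10b sequences that reached 100 reads when both libraries were added, which held 99.8% of its reads in each library, 4 were at least 2-fold higher in Dicer KD, 0 were at least 2-fold lower and 30 were neither. Over all 10652 sequences of 18 to 26 nt with that minimum, 4.98% were higher and 6.05% lower, and the median log2 ratio was -0.11, against 0.04 for the miR-10b forms. Of the 4 forms of 18 and 19 nt that were tested 3 were higher, whereas 9.54% of all sequences of those lengths were.

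The form from nt 1 to nt 18 had 2687 reads in Dicer KD and 391 in control, a ratio of 6.79 (6.10 to 7.57). The form from nt 1 to nt 19 had 7573 and 1827 reads, a ratio of 4.09 (3.89 to 4.31). The form from nt 2 to nt 19, also 18 nt long, had 588 and 108 reads, a ratio of 5.38 (4.37 to 6.67). The form from nt 2 to nt 20, which is 19 nt long, had 1071 and 712 reads, a ratio of only 1.49 (1.35 to 1.64). The ratio thus went with the base at which a read ended, nt 18 or nt 19, more than with its length. Ends at nt 20 gave 9758 and 7312 reads from nt 1, a ratio of 1.32 (1.28 to 1.36), and ends at nt 21 gave 19973 and 13751, a ratio of 1.43 (1.40 to 1.47). The fourth form called was full length with G21C, on 99 and 4 reads, one of the substitutions described above. The lowest ratio was 0.545 (0.417 to 0.708), for the 22-nt form with G21T, with 91 and 165 reads, so the same position was at the extreme in both directions. The G21T form cannot be told from the form from nt 1 to nt 20 with TT added.

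**Figure D4:**
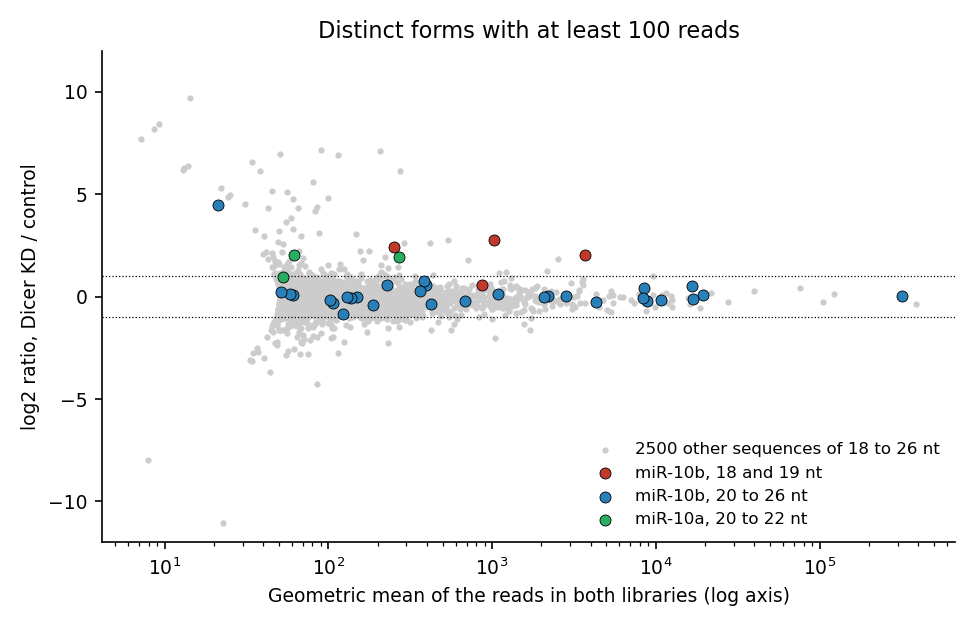
log2 ratio of Dicer KD over control (vertical) against the geometric mean of the reads in both libraries (horizontal, log axis) for distinct sequences with at least 100 reads; dotted lines mark 2-fold. Of the miR-10b forms of 18 and 19 nt, 3 of 4 lie above the upper line, while its forms of 20 to 26 nt, apart from 1, lie between the lines among 2500 other sequences drawn at random.

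The 5′ end of miR-10b was mixed in both libraries. Reads starting at nt 1 made up 90.8% in Dicer KD and 89.8% in control. Reads starting at nt 2, with the moved seed, made up 9.15% (9.06 to 9.23%) in Dicer KD and 10.2% (10.1 to 10.3%) in control, a share ratio of 0.896 (0.884 to 0.908). Starts before nt 1 were rare, with 7 and 26 reads. In contrast, reads with a shifted start made up 0.0372% (0.0292 to 0.0468%) and 0.0360% (0.0285 to 0.0449%) of miR-182, and 0.0197% and 0.0178% of miR-148a. These intervals lie far below those of miR-10b in both libraries. Among the relatives, shifted starts had 1 of 668 reads in Dicer KD and 10 of 2134 in control for miR-100, 5 of 414 and 1 of 520 for miR-99b, and 0 of 541 and 1 of 786 for miR-125b. miR-125a had none in either library. miR-99a had 1 of 128 in Dicer KD and 3 of 44 in control, where the interval of 1.43 to 18.7% includes the share of miR-10b.

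Start and end were linked in miR-10b. Among reads that began at nt 1, the last base was at nt 22 in 80.7% of Dicer KD reads and 84.0% of control reads, and at nt 24 or later in 3.47% and 3.94%. Among reads that began at nt 2, the last base was at nt 22 in 40.3% and 40.8%, at nt 23 in 20.6% and 20.3%, and at nt 24 or later in 32.0% and 34.6%. Later starts thus went with later ends in both libraries, and the 23-nt form from nt 2 with GT had 8160 reads in Dicer KD and 9448 in control. Reads that began at nt 2 therefore made up 44.8% of 21-nt reads in Dicer KD and 55.8% in control. Of 22-nt reads they made up 2.51% and 2.67%, and of 23-nt reads 34.5% and 39.0%.

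**Figure D5:**
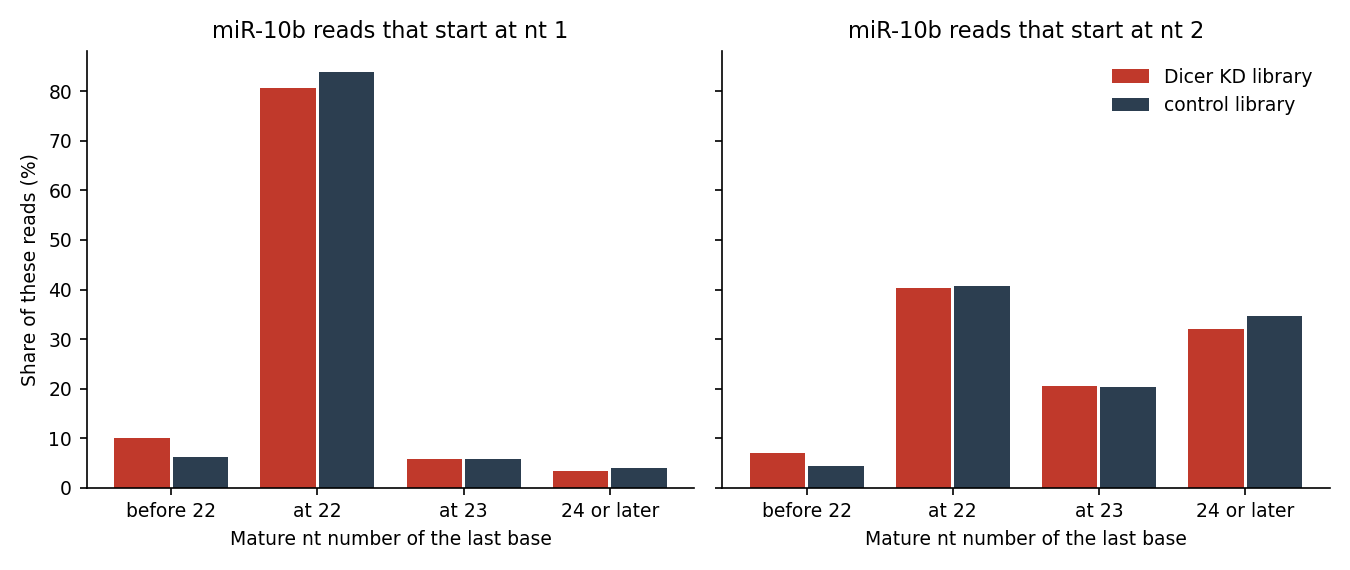
Share of miR-10b reads by the mature position of their last base (vertical, percent), for reads that start at nt 1 (left) and at nt 2 (right), in the Dicer KD library and the control library. Ends at nt 24 or later hold 3.47% and 3.94% of reads from nt 1, and 32.0% and 34.6% of reads from nt 2.

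The base at nt 24 also depended on the start. Past nt 22 the first base was G in 93.2% of extended miR-10b reads in Dicer KD and 94.0% in control. Among reads that ended with 1 more base after that G, and began at nt 1, this base was A in 78.6% (77.9 to 79.4%) of Dicer KD reads and 82.1% (81.5 to 82.7%) of control reads, and T in 17.3% and 15.5%. For reads that began at nt 2 the order was reversed, with T in 65.8% (64.9 to 66.6%) and 66.0% (65.2 to 66.8%) and A in 31.9% and 32.6%. The link between the start and this base was thus present in each library separately. No hairpin sequence was used, so encoded bases past nt 22 cannot be told apart from added ones.

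Additions of a single base could be read only where the last base differed from the mature one, at nt 19 to nt 22. Such reads made up 0.610% (0.588 to 0.634%) of miR-10b in Dicer KD and 0.630% (0.606 to 0.654%) in control, a share ratio of 0.969 (0.918 to 1.02). The base was A in 2493 of 2715 reads in Dicer KD and in 2528 of 2680 in control. C had 97 and 61 reads, G 88 and 44, and T 37 and 47. Differing last bases were thus mostly A. Their total was level between the libraries, while the shares with G and with C were larger in Dicer KD. G was at 0.0198% and 0.0103% of miR-10b reads, a share ratio of 1.91 (1.32 to 2.81). C was at 0.0218% and 0.0143%, a share ratio of 1.52 (1.09 to 2.13). An added T could be seen at nt 21 only, because nt 19, nt 20 and nt 22 are T themselves.

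The total was dominated by nt 22, and at shorter ends the share with A was lower in Dicer KD. Of reads that ended at nt 22, A was the last base in 0.639% in Dicer KD and 0.649% in control, a share ratio of 0.986 (0.929 to 1.05). At nt 21, A ended 164 of 21425 reads in Dicer KD and 166 of 15080 in control, 0.765% and 1.10%. The share ratio there was 0.695 (0.557 to 0.868). At nt 20, A ended 111 of 10987 and 117 of 8177 reads, 1.01% and 1.43%, a share ratio of 0.706 (0.540 to 0.923). At nt 19 it was the last base in 28 of 8205 reads in Dicer KD and 49 of 1987 in control, a share ratio of 0.138 (0.0837 to 0.225). The lower share at nt 19 came with many more reads that ended there without a differing base, the short forms described above. At nt 20 and nt 21 the reads ending in A were nearly equal in number between the libraries. The lower shares there came with more reads in all that ended at these bases in Dicer KD.

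Differing last bases were compared with the same base inside longer reads, counting here also reads with another difference before it. At nt 19, A was found in 0.341% of Dicer KD reads that ended there and 0.0189% of those that went on, and in control in 2.47% and 0.00992%. At nt 20, A was found in 1.14% of Dicer KD reads that ended there and 0.00780% of those that went on, and in control in 1.74% and 0.00819%. At nt 21, A was found in 0.840% and 0.0249% in Dicer KD, and in 1.24% and 0.0103% in control. From nt 19 to nt 21, A at the last base was therefore 18.1-fold to 146-fold more frequent than A inside the read in Dicer KD and 121-fold to 248-fold in control. At nt 22 the difference was smaller, 0.648% and 0.350% in Dicer KD and 0.656% and 0.427% in control. Most of the reads with A inside at nt 22 ended in AA, 163 of 207 in Dicer KD and 214 of 262 in control for reads from nt 1 alone. At nt 22 the comparison therefore does not separate an added base from an inner one. G at nt 22 was rarer at the last base than inside, 0.0222% and 0.0964% in Dicer KD and 0.0136% and 0.0506% in control. So was C, 0.0219% and 0.0491% in Dicer KD and 0.0174% and 0.0294% in control. An added G or C thus cannot be told from a substitution there. Reads with a G past nt 22 and nothing further made up 6.35% of miR-10b in Dicer KD and 6.51% in control, and reads with a single A there 0.677% and 0.681%.

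Among extended forms, as shares of miR-10b reads, those with GA past nt 22 had 3.15% in Dicer KD and 3.76% in control, a share ratio of 0.838 (0.819 to 0.857), and those with GT 2.33% and 2.72%, a share ratio of 0.856 (0.834 to 0.879). Forms with GG went the other way, with 780 and 480 reads, a share ratio of 1.55 (1.39 to 1.75). So did forms with a single T past nt 22, with 508 and 339 reads, a share ratio of 1.43 (1.25 to 1.65).

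The rarer miR-10a was less often full length than miR-10b. Its exact mature form held 51.9% (48.8 to 54.99%) of its reads in Dicer KD and 47.1% (41.2 to 53.0%) in control. Reads of 18 and 19 nt together numbered 133 and 10, 12.95% (10.96 to 15.2%) and 3.44% (1.66 to 6.23%), a share ratio of 3.77 (1.99 to 8.04). For miR-10b that ratio was 3.69 (3.55 to 3.84), so both members had a larger share of short reads in Dicer KD. Reads of 20 and 21 nt together were 25.1% and 39.9% of miR-10a, a share ratio of 0.630 (0.504 to 0.792), and 10.7% and 9.46% of miR-10b, a share ratio of 1.13 (1.12 to 1.15). Of the 21-nt reads of miR-10a, 37 of 170 in Dicer KD and 40 of 72 in control began at nt 2, so the start enters this difference. By the last base instead, miR-10a reads that followed the mature sequence to nt 21 made up 14.02% and 12.7%, a share ratio of 1.10 (0.764 to 1.63), and those to nt 20 made up 8.67% and 13.7%, a share ratio of 0.630 (0.430 to 0.940).

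Of the 35 miR-10a sequences 3 reached 100 reads, and 2 of them were at least 2-fold higher in Dicer KD, against 4.98% of all sequences of 18 to 26 nt with this minimum. All miR-10a reads together had a ratio of 3.49, so these calls restate that level. The mature form had 533 and 137 reads, a ratio of 3.84 (3.18 to 4.67). The form ending at nt 21 had 125 and 30 reads, a ratio of 4.12 (2.74 to 6.35), and met the minimum through its Dicer KD reads. That ending at nt 20 had 74 and 37 reads, a ratio of 1.98 (1.31 to 3.02). Below this minimum, the form from nt 1 to nt 19 had 75 and 2 reads, a ratio of 37.0 (9.90 to 311), and that from nt 2 to nt 22 had 35 and 38, a ratio of 0.910 (0.558 to 1.48).

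Starts of miR-10a differed between the libraries more than those of miR-10b. Reads starting at nt 2 made up 9.64% (7.90 to 11.6%) in Dicer KD and 23.4% (18.6 to 28.7%) in control, a share ratio of 0.413 (0.300 to 0.570), on 99 and 68 reads. Starts 1 nt before nt 1 had 16 reads in Dicer KD and 0 of 291 in control, which allows a share of up to 1.03% by a limit of 3 reads and 1.26% by the Clopper-Pearson interval. The last base differed from the mature one in 17 and 9 reads, A in 11 and 9 of them. Of the miR-10a reads from nt 2 with G and 1 more base past nt 22, that base was A in 16 of 18 in Dicer KD and 5 of 5 in control, whereas T prevailed among miR-10b reads with this start.

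Other Hox miRNAs and the opposite arm were scarce. miR-10b-3p, the arm usually discarded, had 15 reads in Dicer KD and 5 in control, a ratio of 2.96 (1.02 to 10.4). miR-10a-3p had 0 reads in both, below 0.250 and 0.253 RPM by a limit of 3 reads. miR-196 had 8 and 0 reads and miR-615 had 1 and 1. Of the 4 listed Hox entries, none reached 100 reads. The 5 relatives of miR-10 in sequence all did, with 1 at least 2-fold higher, miR-99a at 2.87 (2.03 to 4.15), and 1 at least 2-fold lower, miR-100 at 0.309 (0.283 to 0.337). With 128 and 44 reads, miR-99a met the minimum through its Dicer KD reads. Over all sequences of 18 to 26 nt with this minimum, 4.98% were higher and 6.05% lower. Those shares are of single sequences, and no share over all miRNAs was computed.

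Markers of other cells were read beside the higher miR-10a, since a different number of such cells and a different amount of RNA per cell cannot be told apart in pooled samples. Of the 7 listed stromal and vascular miRNAs, 6 had reads. They summed to 139 RPM in Dicer KD and 34.3 RPM in control, a ratio of 4.05 (3.63 to 4.52). miR-143 held 1415 of the 1663 Dicer KD reads and 286 of the 406 control reads, so the sum mostly gives its ratio of 4.89 (4.30 to 5.57). The ratio was 2.66 (1.90 to 3.77) for miR-222, 1.70 (1.20 to 2.43) for miR-199a and 1.05 (0.488 to 2.29) for miR-221. miR-145 had 4 and 0 reads, miR-126 had 3 and 2, and miR-214 was at 0 in both. The 5 granulosa miRNAs summed to 609 and 473 RPM, a ratio of 1.29 (1.24 to 1.33), and miR-21 held 7181 of the 7292 Dicer KD reads and 5479 of the 5596 control reads. The other 4 went both ways, with miR-202 at 32 and 6 reads, miR-212 at 7 and 6, miR-132 at 45 and 57 and miR-383 at 27 and 48. Of the 5 blood miRNAs, 3 were at 0 in both libraries and the list summed to 47.2 and 35.6 RPM, a ratio of 1.33 (1.17 to 1.51). miR-486 held 560 of the 565 Dicer KD reads and 414 of the 421 control reads, while miR-451 had 5 and 7 reads. The part of such cells in the miR-10a difference was not tested.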

How the data were processed

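Small RNA of 1 Dicer KD and 1 control library was sequenced on an Illumina instrument after adapter ligation, reverse transcription and PCR, per the labels' protocols. The authors deposited raw read counts per distinct sequence, of 18 to 44 nt, with no normalization. The submitters' processing notes list Bowtie2. The aligner's version, any genome build and how adapters were trimmed are not given in the sources used here.

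No miRNA sequence table was used. Mature miR-10b was the most abundant deposited sequence with the miR-10 seed at nt 2 to 8, and miR-10a the same with T at nt 12, known as the base that differs. Other miRNAs were matched at nt 2 to 9 and nt 13 to 18, written from background knowledge, with the same lengths and starts. The rule naming the miRNAs nearest in ratio needed that table and was not applied.

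Shares have Clopper-Pearson intervals and ratios exact conditional intervals. A sequence was called at 2-fold or more, up or down, if it reached 100 reads, and 0.5 reads were added to each count for the log2 ratio. Named forms were those of at least 1% of their miRNA and the 3 with the largest ratio each way. Members and lists were chosen with earlier results of these data known. The steps were tested on simulated data: all 270 simulated forms and 0 of 100000 random reads were assigned, and 94.9% of intervals over the 37 forms with at least 100 reads held the true ratio. Alternatives covered denominators, match, mismatches, rare sequences and read minimums. Python 3.11.15, numpy 2.4.6, pandas 2.3.3, scipy 1.17.1 and matplotlib 3.10.9 were used.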

Additional observations from a re-analysis of the deposited data

Results flagged for a closer look

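Reads outside the 18 to 26 nt exact matches were also above the control library in 2 places. Reads of 27 to 44 nt that held nt 2 to 18 of miR-10b at the usual start numbered 480 in Dicer KD and 395 in control, a ratio of 1.20 (1.05 to 1.37), and 463 and 377 of them held the start of the 3′ adapter. Reads with 1 mismatch to miR-10b within nt 2 to 18 numbered 4079 and 3292, a ratio of 1.22 (1.17 to 1.28). Outlying samples were not looked for, with 1 library per group.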

How the results depend on the processing

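The ratio of miR-10b (1.03) stayed between 1.01 and 1.07. It was 1.07 relative to reads of 18 to 26 nt, 1.01 with nt 2 to 20 matched in reads of 19 to 26 nt, 1.04 with the exact 5′ start, and 1.01 with 20 to 26 nt alone, a setting added after the values had been seen. The miR-10a ratio (3.49) ran from 3.13 to 4.04, the highest with the exact 5′ start. The 18-nt share ratio (6.26) was 3.69 for 18 and 19 nt together. The full-length share ratio (0.972) was 0.960 with the exact start and 0.991 with nt 2 to 20. With at least 30 reads 7 of 52 miR-10b forms were higher and 1 lower, with no minimum 110 and 64 of 275, and at 1.5-fold 5 and 1 of 34. In these cases the alternative counts other reads, totals or forms. With no minimum, a form with 1 read in a single library and 0 in the other was already called, at a log2 ratio of 1.57 or -1.60. Only 138 of the 275 miR-10b forms occurred in both libraries. The counts of 110 and 64 therefore do not show how many forms differed. No share over all sequences is given for 30 reads, for no minimum or for 1.5-fold. The counts under these settings therefore have nothing to be read against. The other 32 values, of 45 computed, stayed within the main interval or within 1.5 times the count, among them those for shifted starts and single-base additions. Values relative to all known miRNA reads were not run. No paired analysis was possible because each group had 1 library. Depth limits miR-10a most, whose forms held 137 reads or fewer in control.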

Other observations

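Reads that begin at nt 4 or nt 5 of miR-10b fall outside the member rule, and they were lower in Dicer KD. They numbered 820 in Dicer KD and 1472 in control, a ratio of 0.550 (0.505 to 0.600), with 707 and 1162 starting at nt 4 and 113 and 310 at nt 5. Starts at nt 3 were almost absent, with 19 and 16 reads. Starts at nt 4 or nt 5 were thus less frequent in Dicer KD and ends at nt 18 or nt 19 more frequent, while starts at nt 3 had a ratio of 1.17 (0.571 to 2.44). Reads that both began at nt 4 or nt 5 and ended at nt 18 or nt 19 were too short to be counted. The 2 kinds of shortening therefore could not be compared in full. The reason for these differences was not tested.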
